A study of Mus musculus x Rattus norvegicus with 2 samples.

Results

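The 7 genes Abca3, Lamp3, Napsa, Slc34a2, Ctsh, Lpcat1 and Pgc belong to the surfactant system of the alveolar type 2 (AT2) cell: they build or load its lamellar body, make or recycle surfactant lipid, or cut the surfactant proteins. They were taken by symbol from the mouse and the rat parts of a joint gene set, which gave 14 features, 1 per gene and species, of 80802 in all (55403 mouse and 25399 rat). Their levels were read in lung epithelial cells of both species and along the level of Sftpc, the gene of surfactant protein C.

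The lamellar body is a secretory organelle related to the lysosome. Phospholipid made in the endoplasmic reticulum is pumped into it by ABCA3, and the precursors of surfactant proteins B and C are cut to their mature forms by proteases on the way there, among them napsin A, cathepsin H and, for surfactant protein B, pepsinogen C. The organelle fuses with the apical membrane and releases surfactant, the lipid and protein film that keeps alveoli open at the first breath, and its genes are switched on as AT2 cells mature before birth.

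Single lung cells were profiled at E20.5 in chimeras that held mouse (C57BL/6) cells in a rat (SD) host. The control library was a lung of a wild-type rat that mixed mouse and rat cells. The mutant library was the mouse lung of an Nkx2-1-/- rat, a host without the transcription factor that lung epithelium needs. Both groups therefore carried mouse cells in a rat, and they differed in the host's genotype and in what the host's own cells could add to the lung. There was 1 library per group, how many embryos each held is not stated in the sources used here, and differences between them could not be checked against replicates.

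The libraries held 11129 control and 10918 mutant barcodes with 123047433 and 103627303 unique molecular identifiers (UMIs, each a captured RNA molecule), and 81.1% and 82.3% of barcodes were kept. The libraries shared 47 barcodes, 29 of them kept in both, which were left in. The control epithelium comprised 1189 mouse and 229 rat cells, and the mutant epithelium 2134 mouse and 0 rat cells, with median depths of 10516 and 15158 UMIs in the former and 11852 in the latter. The class was set from lists that hold these markers, so their levels describe it and do not test it. In each of these groups 11 of 11 epithelial markers were found. They summed to 5152 and 4232 counts per 1000000 UMIs of the cells' species (CPM) in control and mutant mouse cells and 3711 CPM in rat cells. In immune cells the sums were 120.5, 283 and 45.1 CPM, and less in endothelial and mesenchymal cells. Cell Ranger 6.0.1 had made the control counts and 7.0.1 the mutant counts. Version 7 of this program made the counting of introns its default, and mouse genes with more intron were counted higher in the mutant library. The effects of program version, host genotype and library cannot be told apart, so differences between mutant and control are also given relative to genes of like intron length (the log2 difference minus their median).

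Most UMIs of each of the 7 genes lay in epithelial cells in the mouse. Epithelial cells made up 16.4% (control) and 25.1% (mutant) of all mouse cells left after doublet removal, and held 84.0 to 98.2% and 89.4 to 98.5% of each gene's UMIs. Their UMIs of all genes were also many, at 33575405 and 27127567, beside 24266743 and 30710427 in mesenchymal cells. Immune cells, few in number (173 and 89), had Napsa at 213 and 256 CPM and Ctsh at 374 and 212 CPM. In endothelial cells Lamp3, Slc34a2, Napsa and Pgc were each at 6.16 CPM or less in both libraries. Abca3 (27.8 CPM in control and 44.9 CPM in mutant cells), Lpcat1 (39.1 and 32.9 CPM) and Ctsh (27.3 and 25.5 CPM) were higher there than in mesenchymal cells, where Abca3 was at 2.47 and 4.49 CPM, Lpcat1 at 20.03 and 10.2 CPM and Ctsh at 19.0 and 17.4 CPM. A share of cells with a UMI is therefore set below against mesenchymal cells.

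Abca3 encodes the lipid pump of the lamellar body membrane (ENSMUSG00000024130, mm10 chromosome 17, 24351950 to 24410201, plus strand, 48.9 kb of intron). It was at 127 CPM in control mouse epithelium (95% interval 124 to 131, exact Poisson, counting error only, as for all intervals of CPM) and 326 CPM in mutant mouse epithelium (319 to 333). The mutant level was 2.56-fold the control level (2.47 to 2.66). The log2 difference, here and below taken after adding 10 CPM to both levels, was 1.29, or 1.39 relative to genes of like intron length.

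Lamp3, also called DC-LAMP, encodes a glycoprotein of the lamellar body's outer membrane (ENSMUSG00000041247, chromosome 16, 19653378 to 19706375, minus strand, 49.6 kb of intron). It was at 63.1 CPM in control cells (60.4 to 65.8) and 541 CPM in mutant cells (532 to 549). That was 8.57-fold higher (8.19 to 8.98), a log2 difference of 2.91 and 3.02 relative to like genes.

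Slc34a2 encodes NaPi-IIb, the sodium-coupled phosphate importer of the AT2 cell's apical membrane, which takes up phosphate freed from surfactant phospholipid (ENSMUSG00000029188, chromosome 5, 53038081 to 53071664, plus strand, 28.6 kb of intron). It had the largest difference of the 7. Its level was 91.6 CPM in control cells (88.4 to 94.9) and 1040 CPM in mutant cells (1028 to 1052), 11.4-fold higher (10.9 to 11.8), with a log2 difference of 3.37 and 3.47 relative to like genes. Among 9794 genes with at least 10 CPM in either library, Slc34a2 stood at the 99.7th and Lamp3 at the 99.3rd percentile of log2 differences.

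Lpcat1 encodes the acyltransferase that remodels phosphatidylcholine into its dipalmitoyl form, the main surfactant lipid (ENSMUSG00000021608, chromosome 13, 73467197 to 73516422, plus strand, 44.6 kb of intron). It was at 242 CPM in control cells (236 to 247) and 516 CPM in mutant cells (507 to 524), 2.14-fold higher (2.08 to 2.19). The log2 difference of 1.06 was 1.17 relative to like genes, and 0.95 when each cell counted equally, which is under 2-fold.

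The 3 proteases differed in direction before genes of like intron length were taken into account. Napsa, the aspartic protease napsin A (ENSMUSG00000002204, chromosome 7, 44572380 to 44586862, plus strand, 11.8 kb of intron), was at 378 CPM in control cells (372 to 385) and 917 CPM in mutant cells (905 to 928), 2.43-fold higher (2.37 to 2.48; log2 difference 1.26, and 1.67 relative to like genes). Ctsh, the cysteine protease cathepsin H (ENSMUSG00000032359, chromosome 9, 90054152 to 90076089, plus strand, 17.4 kb of intron), was at 1027 CPM (1017 to 1038) and 1685 CPM (1669 to 1700), 1.64-fold higher (1.62 to 1.66; log2 difference 0.71, and 1.12 relative to like genes). Pgc, the aspartic protease pepsinogen C (ENSMUSG00000023987, chromosome 17, 47726842 to 47734482, plus strand, 6.25 kb of intron), was at 26.6 CPM (24.9 to 28.4) and 19.5 CPM (17.8 to 21.2). Pgc was thus 0.732-fold the control level (0.656 to 0.816), with a log2 difference of -0.31 that became 0.23 relative to genes of like intron length, so its direction depended on that scaling.

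In all, 5 of the 7 genes were at least 2-fold higher in mutant than in control mouse epithelium and 0 were at least 2-fold lower, where 12.4% of the 9794 genes tested were higher and 11.8% lower by the same rule. The median log2 difference was 1.26 for the 7 genes and -0.17 for all genes tested, and scaling by the trimmed mean of M-values (TMM) moved the zero point by 0.19 in that direction. Sftpc itself was at 31479 CPM in control and 65442 CPM in mutant cells. The makeup of the epithelium also differed. All 10 of 10 alveolar type 1 (AT1) markers were found in both libraries, with summed levels of 2548 CPM (control) and 9461 CPM (mutant), and the 6 secretory airway markers summed to 1448 and 2882 CPM. The part of this makeup in the whole-epithelium levels was not tested, and in bulk sums a change in the number of cells that make a gene cannot be told apart from a change per cell.

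**Figure D1:**
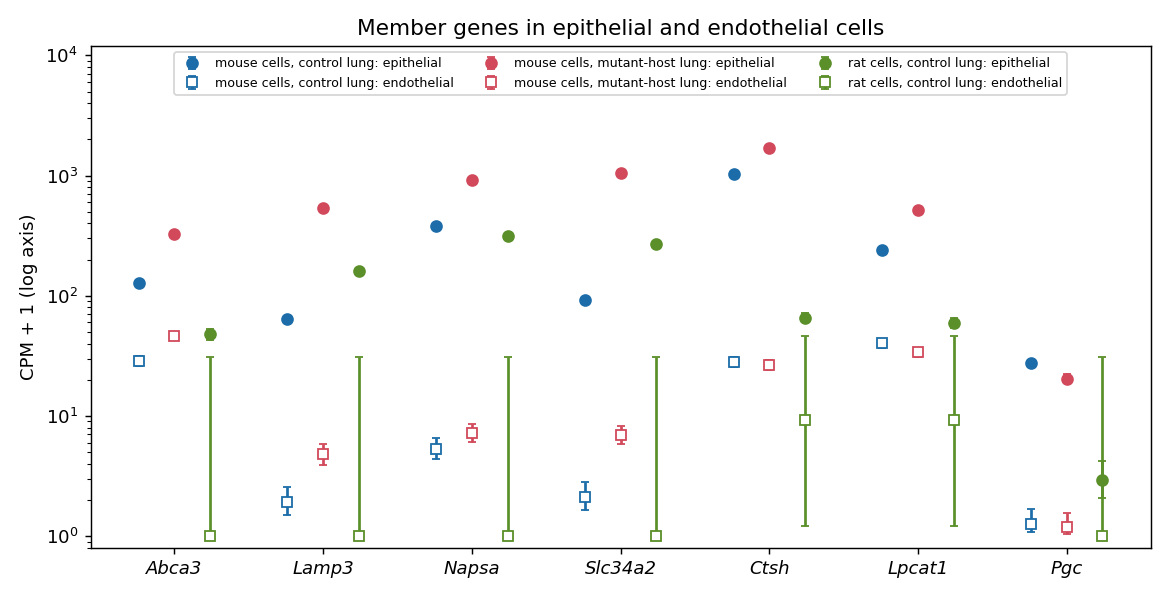
Level of each of the 7 genes in epithelial cells (filled circles, CPM + 1, log axis) for mouse cells of the control lung, mouse cells of the mutant lung and rat cells of the control lung, with endothelial cells as open squares (12 cells in the rat) and exact 95% Poisson intervals for counting error. Slc34a2 lies at 91.6, 1040 and 269 CPM, Ctsh at 1027, 1685 and 64.6 CPM, and rat Pgc rests on 14 UMIs.

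The share of cells with a UMI was compared after each cell was thinned to 2000 UMIs, so that depth was equal. Thinning left out 183 control and 245 mutant mouse epithelial cells and 2 rat epithelial cells for lack of UMIs. Lamp3 was then found in 6.96% of control and 31.0% of mutant mouse epithelial cells (26.4% and 34.4% before thinning), against 0.243% and 0.534% of thinned mesenchymal cells. Slc34a2 was found in 11.03% and 34.4% (26.3% and 39.4% unthinned), with 0.0811% and 1.11% in mesenchymal cells. The median unthinned depth of those mesenchymal cells was 8973 and 12052 UMIs.

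The other genes were found more widely. Napsa was in 34.99% of control and 52.9% of mutant cells after thinning (57.4% and 73.0% before), Ctsh in 72.5% and 85.3% (83.4% and 92.5% before), and Abca3 in 16.3% and 33.5% (49.6% and 56.6% before). In mesenchymal cells the thinned share was 0.284% and 0.781% for Abca3, 3.81% and 3.82% for Ctsh, and 0.689% and 0.698% for Napsa. Lpcat1 went from 58.6% and 56.8% unthinned to 29.03% and 36.7% thinned, with 3.93% and 1.97% in mesenchymal cells, and at 5000 UMIs per cell the shares were 51.6% and 53.7% with intervals that overlapped, so no order was read for it. Pgc was in 27.3% and 12.2% of cells before thinning but in 3.38% and 3.92% after it, and at 5000 UMIs in 9.57% and 7.17%. Its intervals overlapped at both thinned depths, so no order was read for it either.

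The epithelial cells were then split into 5 bins by their Sftpc level, with limits at 1000, 5000, 20000 and 100000 CPM of Sftpc. From the lowest to the highest bin there were 305, 159, 295, 413 and 17 control mouse cells and 972, 336, 114, 169 and 543 mutant mouse cells. The control cells thus lay mostly in the middle bins and the mutant cells at both ends. The rat cells numbered 92, 42, 86, 9 and 0. Median depth was not even across bins, at 8995, 2995, 7906, 19507 and 8690 UMIs in the control and 10234, 3492, 9408, 12683 and 19452 UMIs in the mutant library.

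Lamp3 and Slc34a2 were nearly silent in the lowest bin and steeply higher with Sftpc in both libraries. From the lowest bin up, Lamp3 was at 0.695, 2.54, 19.5, 105 and 123 CPM in the control. In the mutant library it was at 4.49, 28.7, 80.1, 731 and 1189 CPM.

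Slc34a2 had the same order of bins. Its levels were 0.417 (3 UMIs), 11.5, 45.6, 147 and 178 CPM in the control. They were 12.9, 31.2, 166, 1448 and 2278 CPM in the mutant library, so the mutant level was above the control level in every bin.

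Abca3 and Lpcat1 started from a higher floor. Abca3 was at 38.1, 39.4, 70.2, 186 and 216 CPM in the control and 61.1, 73.0, 156, 512 and 620 CPM in the mutant library. Lpcat1 was at 36.6, 65.5, 138, 367 and 291 CPM in the control and 52.4, 78.4, 181, 744 and 1055 CPM in the mutant library. The control Lpcat1 value of the top bin rests on 17 cells.

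The proteases again went apart. Napsa was at 40.2, 151, 294, 548 and 713 CPM in the control and 160, 276, 445, 995 and 1844 CPM in the mutant library. Ctsh was already high where Sftpc was lowest and differed less between bins than Napsa, at 567, 574, 805, 1306 and 1469 CPM in the control and 1050, 1269, 1598, 2157 and 2314 CPM in the mutant library. Pgc was at 19.5, 17.2, 22.2, 30.8 and 67.8 CPM in the control, the last from 21 UMIs, but at 32.9, 29.2, 35.7, 14.9 and 3.29 CPM in the mutant library. In the mutant library Pgc was therefore lowest where the other 6 genes were highest.

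Between the fourth and the first bin, 6 of the 7 genes in control cells and 6 in mutant cells were at least 2-fold higher, where 2.01% and 3.97% of all genes tested were, and 0 were at least 2-fold lower (6.06% and 8.3% of all genes). The call of Ctsh in mutant cells was lost with scaling to genes of at most 10 kb of intron (0.987) and with doublets left in (0.952). The log2 differences in the control were 3.91 for Slc34a2, 3.48 for Napsa, 3.43 for Lamp3, 3.02 for Lpcat1, 2.02 for Abca3 and 1.19 for Ctsh. In the mutant library they were 5.99, 2.56, 5.68, 3.59, 2.88 and 1.03 in the same order. Pgc differed by 0.47 in control and by -0.79 in mutant cells. Between the fifth and the first bin of the mutant library, which could be read with 543 cells, Pgc was lower by a log2 difference of -1.69, and the other 6 were at least 2-fold higher, where 5.46% of all genes were higher and 13.6% lower.

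**Figure D2:**
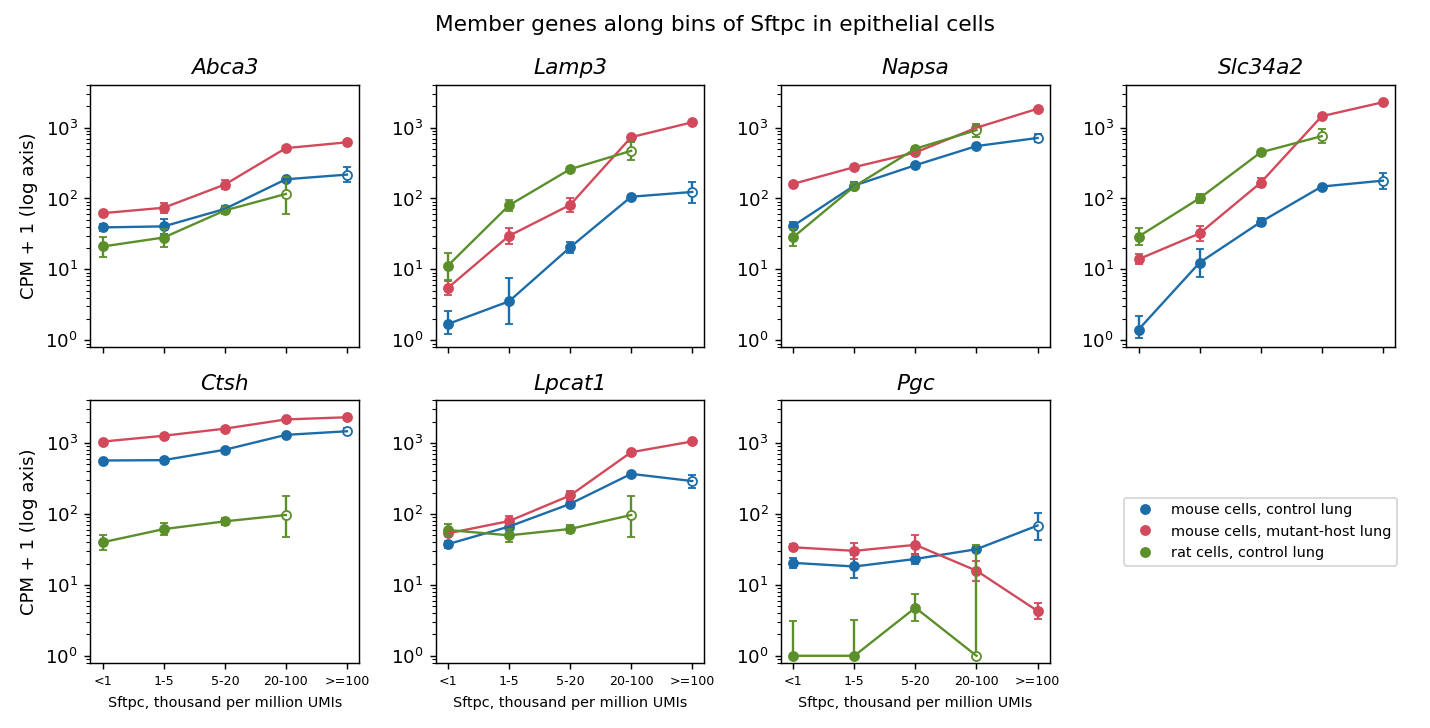
Level of each gene (CPM + 1, log axis) in the 5 Sftpc bins for mouse control, mouse mutant and rat control epithelial cells, with exact 95% Poisson intervals and open symbols for bins of under 20 cells. All genes but Pgc are higher in the mutant than in the control mouse cells in all 5 bins, and mutant Pgc drops to 3.29 CPM in the top bin.

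Most transcripts of these genes came from the bins rich in Sftpc. In the control library the fourth bin held 34.7% of cells, 55.5% of the UMIs of all genes, and between 64.4% (Pgc) and 92.4% (Lamp3) of each gene's UMIs. In the mutant library the fifth bin held 25.4% of cells, 39.2% of the UMIs of all genes, and 53.8% of the UMIs of Ctsh, 74.5% of Abca3, 78.9% of Napsa, 80.2% of Lpcat1, 85.9% of Slc34a2 and 86.3% of Lamp3. It held 6.63% of the UMIs of Pgc, of which 68.0% lay in the lowest bin. That lowest bin held 45.5% of cells and 40.2% of the UMIs of all genes.

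At like Sftpc the mutant cells still had more Slc34a2, Lamp3 and Abca3. In the fourth bin, with 413 control and 169 mutant cells, the log2 difference of mutant over control was 3.22 for Slc34a2, 2.69 for Lamp3, 1.42 for Abca3, 1.00 for Lpcat1 (0.998, just under 2-fold), 0.85 for Napsa, 0.72 for Ctsh and -0.72 for Pgc. Thus 3 of the 7 were at least 2-fold higher there and 0 lower, against 14.8% and 15.2% of all genes, and Napsa and Lpcat1 joined them (5 of 7) under TMM scaling and under scaling to genes with at most 10 kb of intron. Relative to genes of like intron length the differences in the fourth bin were 3.27 for Slc34a2, 2.74 for Lamp3, 1.47 for Abca3, 1.3 for Napsa, 1.17 for Ctsh, 1.05 for Lpcat1 and -0.12 for Pgc. Mean Sftpc in that bin was 50943 CPM in control and 70551 CPM in mutant cells, so the bin did not match Sftpc exactly.

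The third bin was matched more closely, with mean Sftpc of 11500 CPM in 295 control and 10514 CPM in 114 mutant cells. There the log2 differences were 1.66 for Slc34a2, 1.61 for Lamp3, 1.05 for Abca3, 0.98 for Ctsh, 0.58 for Napsa, 0.51 for Pgc and 0.37 for Lpcat1. The 3 genes past 2-fold compare with 9.63% of all genes higher and 12.7% lower. Relative to like genes the values were 1.87, 1.82, 1.26, 1.44, 1.04, 1.08 and 0.58 in the order Slc34a2, Lamp3, Abca3, Ctsh, Napsa, Pgc and Lpcat1. The AT1 markers summed to 4160 CPM in the control and 14440 CPM in the mutant cells of that bin, and to 2018 and 6762 CPM in the fourth bin. In the fourth bin the secretory airway markers summed to 17.5 CPM in control and 924 CPM in mutant cells, and the red cell markers to 268 and 2423 CPM. The part of these markers' cells in the values was not tested.

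In the fifth bin the AT1 markers summed to 1917 CPM in 17 control and 1964 CPM in 543 mutant cells, while mean Sftpc was 109011 and 148589 CPM and the secretory airway markers summed to 25.8 and 502 CPM. Slc34a2 (log2 difference 3.61), Lamp3 (3.18), Lpcat1 (1.83), Abca3 (1.48) and Napsa (1.36) were at least 2-fold higher in the mutant cells there, and Pgc (-2.55) was at least 2-fold lower, where 20.7% of all genes were higher and 17.0% lower. Relative to like genes Pgc was at -1.94 there. The bin with few Sftpc transcripts differed otherwise. In the first bin Napsa had the largest difference, 1.76, followed by Slc34a2 with 1.14, whose control value there was 3 UMIs. The AT1 markers summed to 2285 CPM in the control and 15285 CPM in the mutant cells of the first bin. The part of AT1 cells in its values was not tested.

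**Figure D3:**
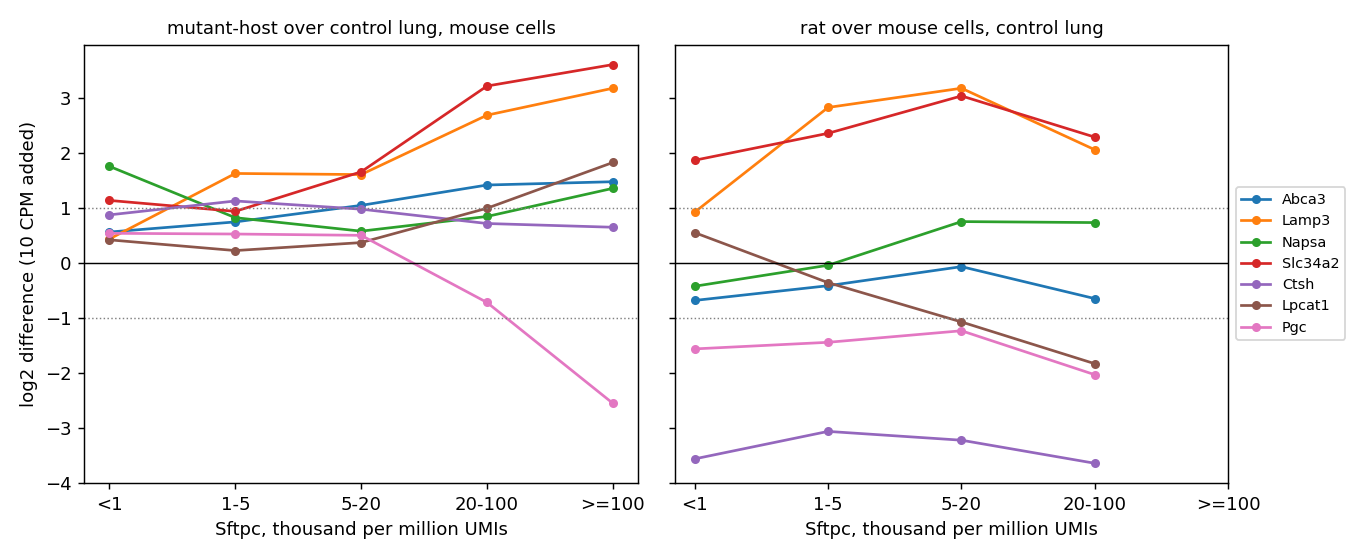
Log2 difference of each gene within each Sftpc bin, after adding 10 CPM, for mutant over control mouse cells (left) and rat over mouse cells of the control lung (right), with dotted lines at 2-fold. In the mouse, Slc34a2 and Lamp3 lie at 3.22 and 2.69 in the fourth bin, and Pgc changes from 0.54 in the first to -2.55 in the fifth bin, where the control has 17 cells; the rat point of the fourth bin rests on 9 cells.

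How many of the 7 genes a single cell showed was counted after thinning to 2000 UMIs. From the lowest to the highest Sftpc bin, the mean number was 0.870, 0.895, 1.58, 2.66 and 2.94 in control mouse cells and 1.39, 1.58, 2.33, 4.06 and 5.29 in mutant mouse cells. In rat cells it was 0.341, 1.02, 1.86 and, over 8 cells, 3. A set of 4 or more of the genes was found in 26.2% of control and 65.4% of mutant mouse cells of the fourth bin, and in 96.5% of mutant cells of the fifth bin. The genes were thus read together in most Sftpc-rich cells of the mutant library at equal depth.

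**Figure D4:**
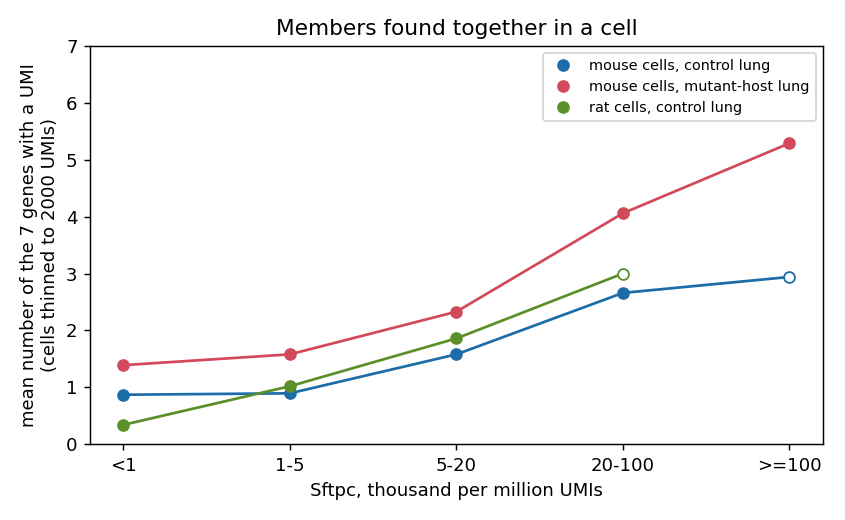
Mean number of the 7 genes with at least 1 UMI per cell, after thinning to 2000 UMIs, in each Sftpc bin for mouse control, mouse mutant and rat control cells (open symbols mark bins of under 20 cells). The mutant mouse cells have the highest mean in each bin, from 1.39 to 5.29 genes.

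The same genes were read in clusters built without them. In the mutant library, the 649 cells of an AT2-like cluster (m11) had Slc34a2 at 2263, Ctsh at 2176, Napsa at 1727, Lamp3 at 1177, Lpcat1 at 1045, Abca3 at 631 and Pgc at 3.84 CPM. The 1032 cells of an AT1-like cluster (m3, with Ager at 7074 CPM) had Lamp3 at 11.7, Slc34a2 at 24.6, Abca3 at 73.7 and Lpcat1 at 89.1 CPM, but kept Ctsh at 1445 and Napsa at 297 CPM, with Pgc at 28.4 CPM. Pgc was therefore lower in the AT2-like than in the AT1-like cells of this library.

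Most control cells (702) lay in a cluster led by Clu, Cldn6 and Epcam (m7) that was not given a cell type. These cells had Ctsh at 1139, Napsa at 445, Lpcat1 at 279, Abca3 at 145, Slc34a2 at 106, Lamp3 at 74.2 and Pgc at 27.4 CPM. The 30 mutant cells in the same cluster had 1752, 672, 288, 170, 258, 184 and 39.5 CPM in that order. Slc34a2 and Lamp3 were higher in the mutant cells within this cluster too, while Lpcat1 was at nearly the same level.

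The airway cluster (m15) was led by the secretory genes Scgb3a2 and Scgb1a1. Its leading genes also included the ciliated cell markers Dynlrb2, Tmem212 and Rsph1, and its best marker list was the ciliated one. It was therefore read as a mix of secretory and ciliated airway genes. This cluster had few transcripts of most of the surfactant system genes studied here. Its 171 control and 146 mutant cells had Slc34a2 at 1.68 and 34.1, Lamp3 at 1.26 and 12.5, and Napsa at 11.3 and 41.0 CPM. Ctsh was at 477 and 713 CPM and Pgc at 25.2 and 47.3 CPM, so these 2 proteases were not limited to Sftpc-rich cells. A further cluster of shallow cells (m13; 311 control and 277 mutant cells) had Ctsh at 566 and 1028 CPM, Napsa at 224 CPM in both libraries, and Lamp3 at 31.7 and 16.0 CPM.

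**Figure D5:**
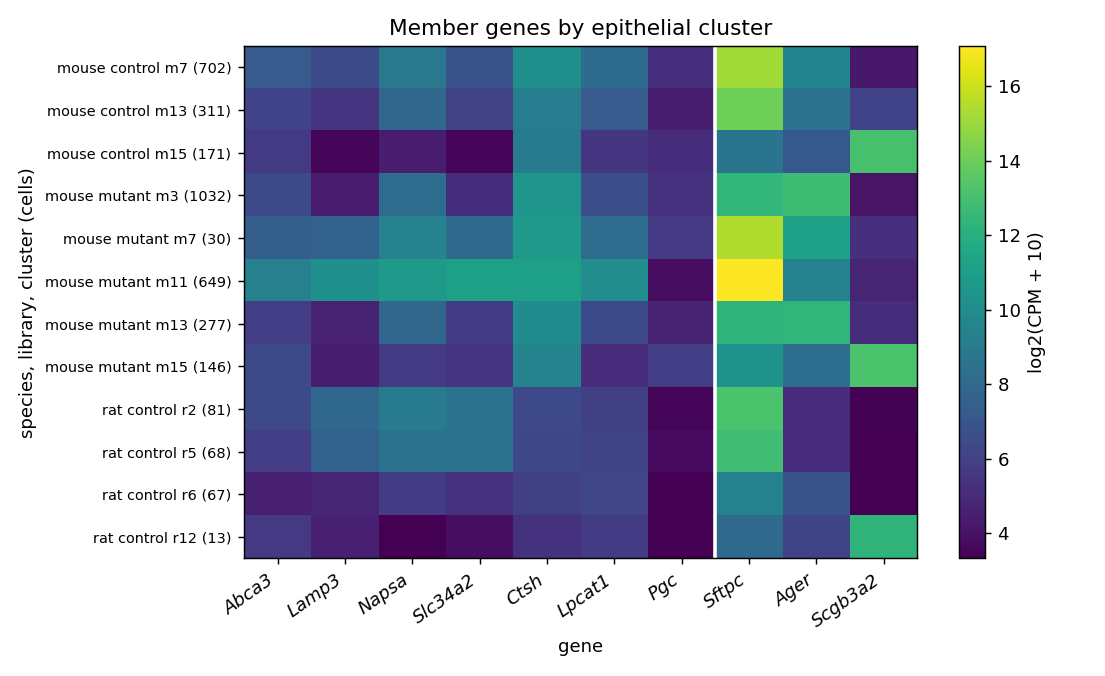
Level of each gene (colour, log2 of CPM + 10) in the epithelial clusters of each species and library, with the number of cells in parentheses, beside Sftpc, the AT1 gene Ager and the airway gene Scgb3a2. The mutant AT2-like cluster m11 has Slc34a2 at 2263 and Pgc at 3.84 CPM, and the AT1-like cluster m3 has Ctsh at 1445 and Lamp3 at 11.7 CPM.

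The rat epithelium of the control lung had another balance of the same 7 genes. Relative to mouse epithelial cells of the same library, rat cells had more Slc34a2 (269 CPM, 258 to 282; 2.94-fold, 2.78 to 3.12) and more Lamp3 (160 CPM, 151 to 169; 2.53-fold, 2.36 to 2.72). They had a like level of Napsa (312 CPM, 299 to 325; 0.825-fold, 0.788 to 0.863). They had less Abca3 (47.0 CPM, 42.1 to 52.2; 0.369-fold, 0.329 to 0.412), and the levels of Lpcat1 (57.8 CPM, 52.4 to 63.7), Ctsh (64.6 CPM, 58.9 to 70.7) and Pgc (1.93 CPM, 1.05 to 3.24, from 14 UMIs) were 4.18-fold, 15.9-fold and 13.8-fold below the mouse levels.

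By the 2-fold rule, 2 of the 7 were higher and 4 lower in rat cells, where 7.63% of 8619 genes with the same symbol were higher and 15.4% lower. The features of the species differ in sequence and in annotated ends, which moves such a ratio in a way that was not tested here. The AT1 markers summed to 947 CPM in rat and 2548 CPM in mouse epithelial cells of the control library. Sftpc was at 6224 CPM in rat and 31479 CPM in mouse cells. The part of the epithelium's makeup in these ratios was not tested. In rat immune cells (27 cells) rat Ctsh was at 425 CPM (350 to 511), beside 374 CPM (349 to 400) in mouse immune cells of the same library, and in rat mesenchymal cells at 164 CPM (150 to 179), above the rat epithelial level. Of the rat Ctsh UMIs in all rat cells of the control library, 40.4% lay in epithelial cells.

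Within the third Sftpc bin (86 rat and 295 mouse cells, with mean Sftpc of 10162 and 11500 CPM), rat Lamp3 was 13.2-fold and rat Slc34a2 9.79-fold the mouse level. With cells instead ranked by Sftpc within each species and cut into 5 bins of equal size, the top bin was read. That leaves Sftpc unmatched, and the log2 differences in that top bin were 1.47 and 1.77. The log2 differences within the third bin as first set were 3.18 for Lamp3, 3.04 for Slc34a2, 0.76 for Napsa, -0.06 for Abca3, -1.07 for Lpcat1, -1.23 for Pgc and -3.22 for Ctsh. Thus 2 genes were at least 2-fold higher and 3 lower, against 9.15% and 17.4% of all genes. The AT1 markers summed to 741 CPM in rat and 4160 CPM in mouse cells of the third bin. The part of AT1 cells in the rat over mouse values was not tested. Abca3, lower in the whole rat epithelium, was at 66.7 CPM in rat and 70.2 CPM in mouse cells of this bin. The sign of its difference turned there with scaling to genes of at most 10 kb of intron (0.12), which also brought Lpcat1 under 2-fold (-0.93), and without the rat cluster r5 described below (0.13).

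Along the bins, rat Slc34a2 was at 28.1, 99.8, 447 and, in 9 cells, 757 CPM, rat Lamp3 at 10.3, 79.1, 258 and 470 CPM, and rat Napsa at 27.5, 147, 503 and 920 CPM. Rat Abca3 was at 20.04, 27.2, 66.7 and 115 CPM. Rat Ctsh (38.9, 60.2, 77.8 and 95.9 CPM) and Lpcat1 (58.4, 49.0, 60.5 and 95.9 CPM) differed less between bins, and the 14 UMIs of Pgc all lay in the third. Between the third and the first bin, 4 of the 7 (Abca3, Lamp3, Napsa and Slc34a2) were at least 2-fold higher in rat cells and 0 lower, where 2.65% and 2.49% of all genes were. In control mouse cells the same step gave Lamp3 and Slc34a2 levels of 19.5 and 45.6 CPM in the third bin.

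Thinned to 2000 UMIs, rat cells showed Slc34a2 in 24.7%, Lamp3 in 22.9%, Napsa in 29.96%, Ctsh in 15.4%, Lpcat1 in 11.01% and Abca3 in 9.69% of cells (43.7, 48.9, 56.8, 54.1, 56.8 and 48.5% unthinned). Pgc was in 0 thinned rat cells and in 3.93% before thinning. Rat cells also carried UMIs of the mouse features: these were 13.3% of all Ctsh UMIs, 5.19% of Lpcat1 and 6 of 20 UMIs of Pgc in rat epithelial cells, and under 1% for Lamp3, Napsa and Slc34a2.

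The rat cluster with the highest levels of Napsa, Slc34a2 and Lamp3 (r2, 81 cells) had Napsa at 492, Slc34a2 at 362 and Lamp3 at 242 CPM. Its leading genes were the lymphocyte genes Ccl5 and Gzma, then Sftpc and Sftpa1. They were listed over 84 control cells, before those with more immune than epithelial marker UMIs were dropped. A second (r5, 68 cells), led by Calca, Ccl20, Areg and Nfkbia, genes of a neuropeptide and of stress and inflammatory responses, had 347, 345 and 186 CPM. Another (r6, 67 cells) had 44.5, 29.4 and 16.9 CPM. Lpcat1 had another order, with 50.8 CPM in r2, 60.8 CPM in r5 and 63.2 CPM in r6. Leaving r5 out kept 2 genes higher and 4 lower than in the mouse.

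The rat transcripts of all 7 genes were few in the lung of the Nkx2-1-/- host. Over all barcodes, the control and mutant libraries held 1510 and 0 rat UMIs of Lamp3, 2480 and 3 of Slc34a2, 3065 and 32 of Napsa, 433 and 16 of Abca3, 670 and 21 of Lpcat1 and 20 and 1 of Pgc. Rat Sftpc had 56971 and 8. Rat Ctsh, which rat mesenchymal and immune cells also held in the control lung, kept the most, with 1800 and 211 UMIs. The totals of rat cells differed as well, with 725 kept rat barcodes in the former and 79 in the latter.

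The pattern of each gene over 10 groups of mouse cells (5 bins in 2 libraries, of which 1 group has 17 cells) was compared with 7521 genes by the Pearson correlation of log2(CPM + 10), as a description. Abca3, Lamp3 and Slc34a2 were each other's nearest genes, with correlations of 0.987 to 0.992, followed by the ephrin receptor gene Epha7 (0.981 to 0.987). Lpcat1 was nearest to Epha7 (0.991) and to the surfactant protein genes Sftpa1 (0.988) and Sftpb (0.986). Napsa was nearest to Sftpa1 (0.962), Rbpjl (0.959) and Lpcat1 (0.948). Ctsh was nearest to genes outside the surfactant system, Zdhhc3 (0.957), Nrp1 (0.953) and Adamts9 (0.943), and so was Pgc, with Polr2f (0.930), Ccdc107 (0.899) and Polg (0.899). The correlation of Pgc with the other 6 lay between -0.37 and -0.13, and all other pairs lay between 0.85 and 0.99. The groups share libraries, depth and cells, so these values have no test.

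Other genes of the surfactant and lamellar body system were read in mouse epithelium from lists by role. Of the 4 surfactant protein genes, all measured, 4 were at least 2-fold higher in the mutant library (median log2 difference 2.05, and 2.58 relative to like genes), among them Sftpd (4.59), Sftpa1 (2.46) and Sftpb (1.63). Of 17 genes of phospholipid and fatty acid supply, 14 were measured and 5 were higher (median 0.94, and 1.07 relative to like genes), or 8 relative to like genes. The most different was Scd1, the desaturase that makes monounsaturated fatty acids, which was at 5.54 CPM in control and 840 CPM in mutant cells (5.77, and 6.32 relative to like genes). It stood before Gpam (2.39, relative 2.08) and Acaca (1.96, but 0.65 relative to like genes, under 2-fold), which start glycerolipid and fatty acid synthesis.

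Machinery shared with other lysosome-related organelles differed less. Of its 14 genes, 11 were measured and 1, Lyst (1.36), was higher, with 0 relative to like genes, where Lyst was at 0.63 (median -0.09, and 0.0031 relative). Of 15 general lysosome genes, 14 were measured and 2 were higher, Lamp2 (1.41, relative 1.52) and Lipa (1.18, relative 1.28; median 0.27, and 0.74 relative). Of 13 genes of secretion, re-uptake and pool size, 11 were measured and 3 were higher: Abca1 (2.30, relative 1.57), Rab27a (2.13, relative 2.23) and the surfactant pool receptor Adgrf5 (1.10, but 0.79 relative, under 2-fold). Relative to like genes 3 of this list were higher, with Prdx6 (1.05, log2 difference 0.50) in place of Adgrf5. The median of this list was 0.50, and 0.71 relative to like genes. Of 10 regulators, 9 were measured, with Cebpa higher (1.19, relative 1.72) and Foxa2 lower (-1.26, but -0.73 relative, under 2-fold; median -0.37, and -0.20 relative). Relative to like genes 1 regulator was lower, Nfib (-1.28), whose log2 difference was 0.03. Over these lists, with the measured genes of each given above, 16 genes were at least 2-fold higher and 1 lower. Of the 16, 4 were the surfactant protein genes, among them Sftpc, which defines the bins. Of all genes tested, the same 12.4% were higher and 11.8% lower. Relative to like genes 9.36% of all genes were at least 2-fold higher and 6.84% lower.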

How the data were processed

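The deposited matrices hold the authors' UMI counts per feature and barcode, whole numbers with no scaling, from 10x 3' v3 libraries per the labels' protocols. Cell Ranger 6.0.1 (control) and 7.0.1 (mutant) stand in the file headers, and mm10, rn6 and Seurat 4.3 in the submitters' processing notes. Whether intronic reads were counted is not given in the sources used here.

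Barcodes with at least 500 genes and at most 20% mitochondrial UMIs were kept, called mouse or rat at 90% of UMIs, and otherwise left out as mixed (882 control, 57 mutant). Scrublet in Scanpy 1.11.5 scored doublets: mouse cells scoring 0.2 or more were removed (154 control, 356 mutant), as were 0 rat cells. Each species was clustered with the 7 genes left out (2000 variable genes, 30 components, Leiden resolution 1). The number of neighbours was 15 in mouse and 8 in rat, the latter chosen while clusters were built because a larger number merged epithelial with blood cells. Clusters took their class from marker lists, and 10 cells of epithelial clusters with more immune than epithelial marker UMIs were dropped.

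UMIs were summed per group and given as CPM of the cells' species. With 1 library per group there was no test, and intervals (exact Poisson, or Clopper-Pearson for shares, 95%) cover counting error only. The step between bins was read where both had at least 20 cells, a choice made after the cells per bin were seen. Mouse positions and introns come from GENCODE vM21 (mm10), and no rat annotation was used here. The members and lists were chosen with earlier results of these data known. Named genes were all 7 members, up to 3 genes past 2-fold per list and direction with the largest differences, and the 3 genes most like each member, leaving out ribosomal protein, mitochondrial and unnamed gene models. Prdx6 and Nfib were named in addition, being past 2-fold only relative to like genes.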

Additional observations from a re-analysis of the deposited data

Results flagged for a closer look

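Pgc went in opposite directions along Sftpc in the 2 mouse samples: from the first to the fourth Sftpc bin its log2 difference was 0.471 in control cells (19.5 to 30.8 CPM) and -0.787 in mutant cells (32.9 to 14.9 CPM). The difference between the libraries was not tested, since each group has 1 library. In the mutant library the Pgc value of the fourth bin rests on 37 UMIs in 169 cells, and that of the fifth bin on 35 UMIs in 543 cells.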

How the results depend on the processing

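Over 16 alternative settings, 188 of 196 recomputed counts stayed within 1.5 times the reported value and 8 did not. The other 607 recomputed values were of single genes or of the share of all genes at least 2-fold higher. Of these, 473 moved by less than their counting interval (under 1 percentage point for that share) and 134 by more. Of the single-gene values past 2-fold, 0 changed sign. In the fourth Sftpc bin, the count of genes at least 2-fold higher in mutant than in control mouse cells went from 3 to 5 with scaling to genes of at most 10 kb of intron, to 5 with TMM scaling and to 5 with cells ranked by Sftpc and cut into 5 bins of equal size. The genes at least 2-fold lower in the fourth bin went from 0 to 1 with 1 CPM added before the log, and 1 was lower in the top bin of equal size. Those lower in the fourth than in the first bin of the mutant library went from 0 to 1 with 1 CPM added. Between the top and the lowest bin of equal size, 1 was lower. That gene was Pgc. Among the other lists, genes at least 2-fold lower went from 1 to 2 with the endothelial level subtracted. In whole mouse epithelium the log2 difference of mutant over control lay between 2.99 and 3.56 for Slc34a2, 2.74 and 3.10 for Lamp3, 1.26 and 1.48 for Abca3, 1.21 and 1.45 for Napsa, 0.95 and 1.25 for Lpcat1, 0.68 and 0.90 for Ctsh, and -0.43 and -0.05 for Pgc. The share of all genes at least 2-fold higher there, 12.4% as reported, lay between 10.4% (each cell counted equally) and 29.5% (endothelial level subtracted), and was 2.2% with no minimum level. Of rat over mouse in the third bin, or in the top bin where bins were of equal size, Abca3 ranged from -1.22 to 0.55, Lamp3 from 1.47 to 3.66 and Slc34a2 from 1.77 to 3.33. Subtracting the endothelial level says little of rat over mouse, since the rat level rests on 12 cells with 0 UMIs of Abca3 and 1 of Lpcat1. Leaving out the rat cluster r5 and the shallow mouse cluster m13 were chosen after seeing the data and moved none of these counts by over 1.5 times. No paired analysis was possible because each group has 1 library. The low UMI numbers of Pgc, the 17 control cells of the top bin and the 9 rat cells of the fourth limit what can be read there.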

Other observations

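Napsa was also read in immune cells of both species. It was at 213 CPM (194 to 233) in 173 control and 256 CPM (228 to 288) in 89 mutant mouse immune cells, and at 218 CPM (166 to 282) in 27 rat immune cells, where its 58 UMIs lay in 6 cells and Sftpc was at 7.52 CPM (2 UMIs). In mouse immune cells Sftpc was at 199 CPM in the control and 2375 CPM in the mutant library. Lamp3 in the mutant immune cells was 55 UMIs in 4 cells. The part of epithelial RNA in the mouse Napsa values was not tested. Lamp3 and Slc34a2 in mouse endothelial cells were at 0.922 and 1.12 CPM in the control and 3.80 and 5.97 CPM in the mutant library.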
